A study of Mus musculus and Mus musculus
Oryx dammah with 30 samples.

Results

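The Dppa genes and Dux are 5 mouse genes of early development, namely Dppa2, Dppa3, Dppa4, Dppa5a and Duxf3, the last being the symbol under which the tables list mouse Dux. They were found by gene symbol in 3 tables of FPKM (fragments scaled to the length of the gene and to the counted reads of the library), which hold 53023 genes for the 2 experiments with 4-cell recipients and 55364 for the 2-cell experiment. All 5 were present in each table, but 4 of the 5 reached the level required for a test (1 FPKM or more in 3 or more libraries), and Duxf3 did so in no table. RNA-seq had been made from pools of nuclear transfer (NT) embryos, in which cells of C2C12, a mouse myoblast line of C3H origin, were fused with embryos of C57BL/6 oocytes and DBA/2 sperm and kept in 0.1 µg/ml demecolcine, an agent that arrests the cell cycle. In the 4-cell experiment, NT started at 46 h post insemination (hpi) and the embryos then spent 24 h in culture, either untreated or in α-amanitin, an inhibitor of RNA polymerase II (3 libraries each, pools of 3 embryos). In the replication experiment, groups D and DR (3 libraries each, pools of 4 embryos, no α-amanitin) differed in whether NT came before or after DNA replication of the recipient, and the labels do not say which letter stands for which. In the 2-cell experiment, early (NT from 21 hpi) and late (from 30 hpi) 2-cell embryos were used with or without α-amanitin (6 libraries each, pools of 5 embryos). Demecolcine and the recipient's own nuclei were common to all these groups, so transcripts of the embryo and of the donor nuclei were counted together and cannot be told apart in these values.

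Dppa2 and Dppa4 encode SAP domain proteins that bind each other and chromatin, and in mouse embryonic stem cells they are needed for the expression of Dux. Dux is a double homeobox transcription factor, expressed in a short burst around zygotic genome activation, that turns on 2-cell stage genes such as the Zscan4 cluster. Dppa3 (Stella, PGC7) is an abundant maternal protein that protects the maternal genome from DNA demethylation and restrains the maintenance methylation cofactor Uhrf1, and Dppa5a (Esg1) is a KH domain RNA-binding protein of oocytes, embryos and pluripotent cells.

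In the mm10 coordinates of the 4-cell table, Dppa4 lay at chr16:48283735-48294292 and Dppa2 at chr16:48310477-48319723, both on the plus strand and 16184 bases apart. Dppa3 lay at chr6:122626410-122630272 on the plus strand, Dppa5a at chr9:78367052-78368177 on the minus strand and Duxf3 at chr10:58229979-58232675 on the minus strand. All 5 share sequence with other annotated genes, which bears on how their reads can be assigned. Of the 50-base windows of their transcripts in GENCODE vM21, the share found also in another annotated gene was 16.5% for Dppa3, 29.1% for Dppa2, 31.3% for Dppa4, 38.6% for Dppa5a and 47.0% for Duxf3. The sequences that follow show how close 3 of the members are to their copies, with capitals at the bases that differ between the members of a pair. The coding part of the first coding exon of Dppa5a (chr9:78367985-78368099, minus strand) is set against the start of the annotated pseudogene Dppa5b (chr9:78245550-78245664, plus strand), from which it differs at 3 of 115 bases.
Dppa5a: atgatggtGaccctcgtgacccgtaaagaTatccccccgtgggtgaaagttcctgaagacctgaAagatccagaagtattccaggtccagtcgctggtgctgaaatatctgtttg
Dppa5b: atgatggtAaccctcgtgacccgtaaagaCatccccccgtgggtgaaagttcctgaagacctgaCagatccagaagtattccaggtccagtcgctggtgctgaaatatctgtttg
The first 120 bases of the second coding exon of Dppa3 (chr6:122628577-122628696, plus strand) differ at 3 bases from the processed copy Dppa3-ps (chrX:37625892-37626011, minus strand), which over its 451 bases has 98.2% identity to Dppa3 without gaps.
Dppa3: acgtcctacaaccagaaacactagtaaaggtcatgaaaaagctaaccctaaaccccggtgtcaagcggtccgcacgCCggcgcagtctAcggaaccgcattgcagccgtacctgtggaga
Dppa3-ps: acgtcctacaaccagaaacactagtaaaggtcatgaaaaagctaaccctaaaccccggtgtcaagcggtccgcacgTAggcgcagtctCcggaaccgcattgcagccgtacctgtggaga
For Duxf3, a stretch of 120 bases (chr10:58232396-58232515, minus strand) had 0 differences from AW822073, a protein-coding gene with 98.1% identity to Duxf3 over 1959 bases, so no capitals are shown and reads from this stretch fit both genes.
Duxf3: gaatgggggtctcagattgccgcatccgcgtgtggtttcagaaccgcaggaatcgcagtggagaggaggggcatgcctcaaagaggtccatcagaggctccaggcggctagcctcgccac

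Counted reads ranged from 1136771 to 3101001 in the 6 libraries of the 4-cell experiment, from 2603946 to 19181380 in the replication experiment and from 4712266 to 10503778 in the 2-cell experiment. The 12 library names of the 2-cell table carry 4 prefixes of 3 libraries each, NT, Am, R and RAm. The 6 with Am in the name were taken as treated with α-amanitin and the other 6 as untreated. No prefix says which embryos were early and which late, so each pair of prefixes (NT with Am, R with RAm) is described by its name only. The RAm libraries stood apart from the rest. They held the fewest detected genes (20573 to 22351, against 23573 to 28270 in the other 9 libraries) and a summed FPKM of 760 to 2151 over 8 oocyte markers, against 70.3 to 429 in the others. Among the others, the sum was 247 to 429 in Am, 128 to 244 in R and 70.3 to 86.6 in NT, so Am and NT were also apart. Oosp1 carried most of the RAm sum (434 to 1780 FPKM), and Bmp15 stood at 107 to 205 FPKM in RAm against at most 16.5 elsewhere, whereas Zp3 was lower in RAm (11.7 to 29.5) than in R (56.3 to 70.6) and Am (42.7 to 63.6). Their spike-in share, 8.77% to 11.3% of counted reads, overlapped with that of the Am libraries (6.54% to 8.93%). The changes of the Dppa genes in the 2-cell libraries are therefore given for each pair of prefixes beside the pooled value, and those of other genes by pair. Markers of the donor myoblasts were uneven (12 genes). Their summed FPKM was 838 to 4064 in NT, 2014 to 2194 in Am, 128 to 441 in R and 1069 to 1416 in RAm, and at the 4-cell stage 176 to 563 without and 176 to 1920 with α-amanitin, whereas markers of cumulus cells (6 genes) summed to at most 5.59 in any library. The part of these differences in the results on the Dppa genes was not tested.

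At the 4-cell stage, Dppa3 ranked 4 or 5 among all genes of every library, Dppa5a ranked between 10 and 18, and no Dppa gene passed the test for a difference with α-amanitin. Dppa3 stood at 9870, 9788 and 8677 FPKM in the untreated libraries and at 12108, 13392 and 15928 in those with α-amanitin. All 3 treated libraries were thus above all untreated ones. This experiment had no spike-in values to scale by, so its FPKM are relative to the counted reads of each library. Whether the directions given here for the 4 genes would hold on an absolute scale was not tested. Dppa5a stood at 2829, 3086 and 4576 FPKM without and at 2822, 2538 and 4699 with α-amanitin, and the groups overlapped. The partner genes Dppa2 and Dppa4 lay below Dppa5a in every library, and their differences had opposite signs. Dppa2 measured 339, 398 and 355 FPKM without α-amanitin and 304, 249 and 203 with it, whereas Dppa4 measured 336, 388 and 315 without it and 423, 452 and 454 with it. In neither gene did the groups overlap, so the groups were apart for 3 of the 4 genes, as they were for 35.2% of the 9884 genes tested. In FPKM, a scale per length, Dppa2 was slightly above Dppa4 within each of the 3 untreated libraries, although the ranges of the genes overlapped there, whereas Dppa4 was above Dppa2 in all 3 treated libraries without overlap.

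None of the 4 Dppa genes passed the test in this comparison (limma on log2(FPKM + 1), Benjamini-Hochberg adjusted p under 0.05), against 12.2% of all genes tested. Written as untreated minus α-amanitin on the log2 scale, the change was 0.54 ± 0.22 (SE) for Dppa2 (adjusted p = 0.140), -0.54 ± 0.16 for Dppa3 (adjusted p = 0.0606), -0.36 ± 0.19 for Dppa4 (adjusted p = 0.245) and 0.08 ± 0.28 for Dppa5a (adjusted p = 0.870), with a median of 0.37 over all genes tested. The exact permutation test (two-sided) gave p = 0.1 for Dppa2, Dppa3 and Dppa4, which is the smallest that 3 libraries against 3 allow, and p = 0.7 for Dppa5a. The call for Dppa3 depended on the scaling and on the test. With libraries scaled by the median of ratios over genes, its change was -0.86 (adjusted p = 0.0429), and with limma-voom on the recovered reads it was -0.51 (adjusted p = 0.0356). Under the first of these the change of Dppa5a turned from 0.08 to -0.23 (adjusted p = 0.674). The oocyte markers also differed here, with a summed FPKM of 44.1 to 155 with and 21.4 to 33.8 without α-amanitin, and their part in the higher Dppa3 and Dppa4 values was not tested.

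**Figure D1:**
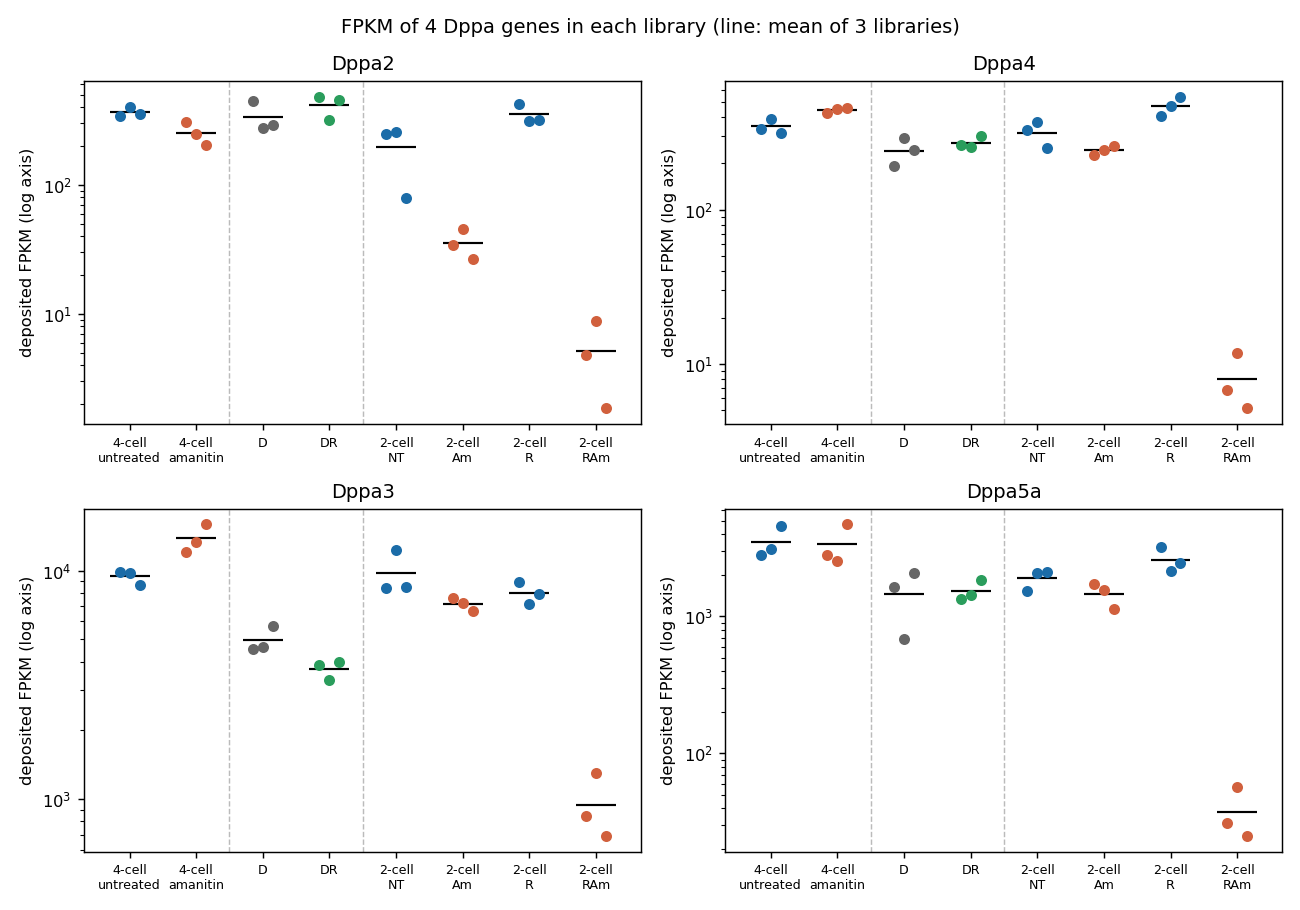
Deposited FPKM (log axis) of Dppa2, Dppa4, Dppa3 and Dppa5a in each of 24 libraries, with 1 point per library and a line at the mean of 3 libraries; dashed lines separate the 3 tables, which were normalized separately. The 3 RAm libraries lie below all others for each of the 4 genes, whereas in the 4-cell libraries the points with α-amanitin lie above the untreated ones for Dppa3 and Dppa4 and below them for Dppa2, with none of these differences past the test.

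Between the groups D and DR, no Dppa gene passed the test for a difference. Dppa3 was listed at 4539, 4645 and 5696 FPKM in D and at 3851, 3330 and 3976 in DR, and these were the only values of the 4 genes that did not overlap between the groups, as for 12.2% of the 14570 genes tested. Dppa5a stood at 1651, 683 and 2070 FPKM in D and at 1347, 1433 and 1842 in DR, so that both the lowest and the highest value were from D. Dppa2 stood at 444, 274 and 293 FPKM in D against 482, 319 and 452 in DR, and Dppa4 at 192, 291 and 242 against 261, 256 and 299. For both genes the ranges overlapped. The summed myoblast markers were also apart here, at 381 to 452 FPKM in D and 175 to 266 in DR, on the same side as Dppa3, and their part in the Dppa3 values was not tested.

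The errors in this comparison were large after spike-in scaling. Scaling factors from the 19 spike-ins seen in every library ran from 0.0937 to 5.60, and after scaling the log2 change (DR minus D) was -1.33 ± 2.40 for Dppa2, -2.06 ± 2.19 for Dppa3, -1.46 ± 2.41 for Dppa4 and -1.45 ± 2.31 for Dppa5a (limma, adjusted p = 0.713 for each), beside a median of -1.41 over all genes. Without spike-in scaling the changes were 0.32 ± 0.26, -0.41 ± 0.16, 0.19 ± 0.21 and 0.20 ± 0.40 in the same order (adjusted p = 0.832, 0.788, 0.864 and 0.916), with a median of 0.02. The sign thus turned for Dppa2, Dppa4 and Dppa5a. 0.0% of all genes passed the test with either scaling (0 genes by limma; 88 genes had an unadjusted p under 0.05 with scaling and 897 without).

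At the 2-cell stage, all 4 Dppa genes were higher without α-amanitin than with it, and after spike-in scaling most genes were too. In the 6 untreated against the 6 treated libraries, the log2 change after spike-in scaling was 5.40 ± 0.78 for Dppa2 (limma, adjusted p = 5.88e-05), 3.19 ± 0.66 for Dppa3 (adjusted p = 5.83e-04), 4.40 ± 1.00 for Dppa4 (adjusted p = 0.00106) and 4.65 ± 1.07 for Dppa5a (adjusted p = 0.00112). The count of 4 of 4 genes stands beside 71.4% of the 17196 genes tested that were also called higher, and the median of all genes was 1.49. For each of the 4 genes every untreated library was above every treated one after scaling (two-sided p = 0.00216 by exact permutation, which is the lowest value that 6 against 6 allow), as for 35.4% of all genes. Without spike-in scaling the changes were 4.14, 1.77, 3.07 and 3.26 for Dppa2, Dppa3, Dppa4 and Dppa5a, against a median of 0.67. In that fit 6694 of the 17196 genes were called higher and 1464 lower, and all 4 Dppa genes stayed called higher. With median-of-ratios scaling over genes they were 3.39, 0.95, 2.29 and 2.44 in the same order, and Dppa3 was no longer called (adjusted p = 0.0929). The pooled SEs covered very unlike pairs of libraries, which are taken apart in the values that follow.

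In the NT and Am libraries, Dppa2 was the Dppa gene that differed most. It measured 249, 259 and 79.8 FPKM in NT and 34.5, 45.5 and 26.8 in Am, so the groups did not overlap although the library NT3 was far below the other two. Dppa3 stood at 8379, 12248 and 8500 FPKM in NT against 7576, 7222 and 6623 in Am, also without overlap, so 2 of the 4 genes were apart, beside 24.7% of all genes with every NT library above every Am library. Dppa4 stood at 327, 368 and 250 FPKM against 226, 244 and 258. Dppa5a stood at 1523, 2065 and 2126 FPKM against 1721, 1555 and 1131. For Dppa4 and Dppa5a 1 untreated library lay within the range of the treated ones.

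The log2 change in this pair (NT minus Am, spike-in scaled) was 3.07 ± 0.59 for Dppa2 (adjusted p = 0.00251), 1.23 ± 0.33 for Dppa3 (adjusted p = 0.0127), 1.17 ± 0.39 for Dppa4 (adjusted p = 0.0316) and 1.19 ± 0.38 for Dppa5a (adjusted p = 0.0254), where 35.1% of all genes were called higher and the median of all genes was 0.80. The change of Dppa2 was 2.27 above that median, whereas the other 3 genes were 0.37 to 0.43 above it. Without spike-in scaling Dppa2 alone of the 4 passed the test, at 2.28 ± 0.48 (adjusted p = 0.00886), and Dppa3, Dppa4 and Dppa5a gave 0.42, 0.36 and 0.38 (adjusted p = 0.223, 0.370 and 0.389), beside a median of 0.24 and 13.4% of genes called higher. Their calls were also lost on leaving out single libraries (Am3 or NT1 for Dppa3, adjusted p = 0.0575 and 0.0617; Am1, Am3, NT1 or NT2 for Dppa4, at most 0.129; Am3, NT1 or NT2 for Dppa5a, at most 0.116), and the call for Dppa2 was not.

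In the R and RAm libraries, the α-amanitin group held little of 3 of the 4 genes. Dppa5a fell from 3203, 2147 and 2444 FPKM in R to 31.1, 56.5 and 24.9 in RAm, a ratio of means of 69.3. Dppa2 fell from 420, 314 and 320 FPKM to 4.79, 8.80 and 1.86, a ratio of 68.2, and Dppa4 fell from 405, 473 and 541 FPKM to 6.80, 11.8 and 5.15, a ratio of 59.6. Dppa3 fell less, from 8944, 7130 and 7859 FPKM to 842, 1298 and 689, a ratio of 8.46, and it was still among the 32 most abundant genes of each RAm library. The untreated R libraries lay above the NT libraries for Dppa2, Dppa4 and Dppa5a and overlapped with them for Dppa3, whereas the RAm libraries were below all other libraries for each gene. All 4 genes were thus apart between R and RAm, beside 58.1% of all genes with R above RAm in every library.

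After spike-in scaling, the log2 change (R minus RAm) was 7.74 ± 0.59 for Dppa2 (limma, adjusted p = 3.90e-08), 5.14 ± 0.33 for Dppa3 (adjusted p = 1.12e-08), 7.63 ± 0.39 for Dppa4 (adjusted p = 2.28e-09) and 8.12 ± 0.38 for Dppa5a (adjusted p = 1.23e-09), beside 76.2% of all genes called higher and a median of 2.19. Only 0.338% of all genes had a larger change than Dppa5a, 0.553% than Dppa2, 0.629% than Dppa4 and 7.33% than Dppa3. Without spike-in scaling the changes were 6.00 ± 0.48, 3.12 ± 0.23, 5.79 ± 0.26 and 6.14 ± 0.29 for Dppa2, Dppa3, Dppa4 and Dppa5a, against a median of 1.05, and all 4 passed the test (adjusted p at most 4.53e-07), as 54.9% of all genes did in this direction. With median-of-ratios scaling they were 4.74, 1.71, 4.46 and 4.74 (adjusted p at most 5.24e-05), and the share of all genes called with that scaling is not given here. The difference between the pairs, (R minus RAm) minus (NT minus Am), was 4.66 ± 0.83 for Dppa2 (adjusted p = 4.41e-04), 3.91 ± 0.47 for Dppa3 (adjusted p = 2.65e-05), 6.47 ± 0.55 for Dppa4 (adjusted p = 2.54e-06) and 6.93 ± 0.53 for Dppa5a (adjusted p = 1.20e-06), where 50.5% of all genes had a larger change in the R pair at this threshold. Dppa1, another gene of the Dppa name and outside the members, was named after its values were seen and was not called in either pair (-0.47 ± 0.42 and -0.23 ± 0.42, adjusted p = 0.384 and 0.623). Without spike-in scaling Dppa1 was called lower in R than in RAm (-1.65, adjusted p = 0.00400) and not called in NT against Am (-0.90, adjusted p = 0.157). Stage and library pair cannot be told apart in this difference, and the RAm libraries are those in which the summed oocyte markers were highest, and their summed myoblast markers were above those of R without overlap, although Zp3 was 3.60 ± 0.38 higher in R than in RAm on the log2 scale (adjusted p = 7.23e-07).

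**Figure D2:**
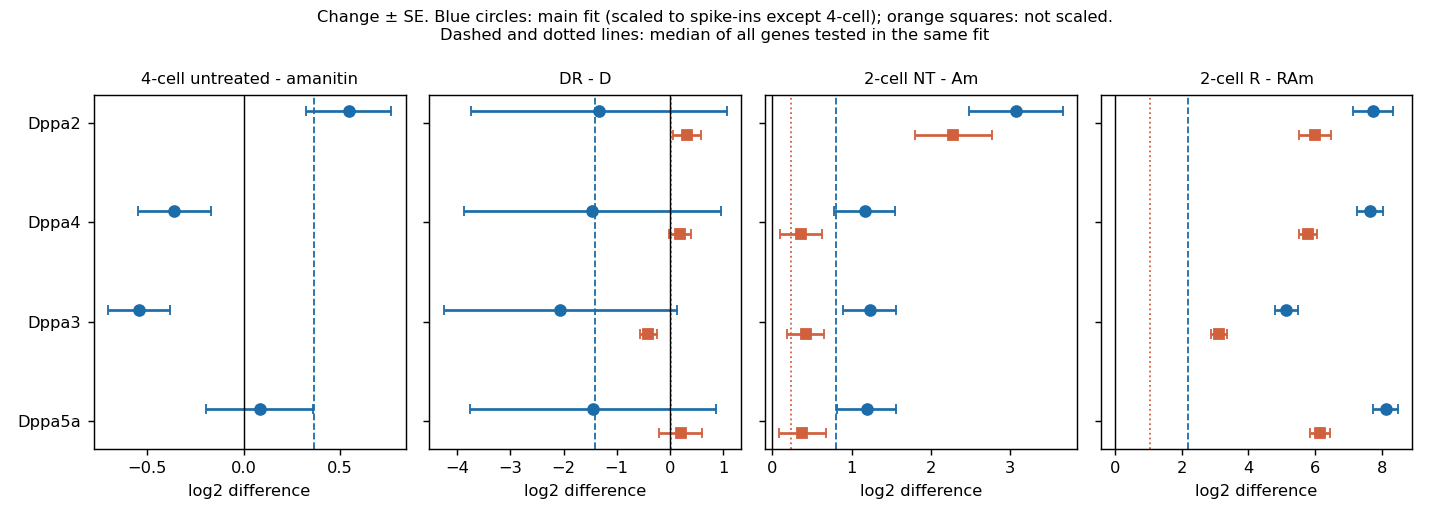
Log2 difference ± SE of 4 Dppa genes in 4 comparisons (limma), with blue circles for spike-in scaled FPKM (in the 4-cell panel, FPKM as deposited), orange squares for FPKM not scaled to spike-ins, and dashed or dotted lines at the median of all genes tested in the same fit; the horizontal axes differ between panels. In NT minus Am, Dppa2 lies 2.27 above the dashed median and the other 3 genes lie close to it, whereas all 4 lie far to the right of it in R minus RAm.

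Since the products of Dppa2 and Dppa4 act together, and a ratio within a library needs no scaling, the ratio of their FPKM was also taken, a measure chosen after the values had been seen. At the 4-cell stage it was 1.01 to 1.13 without and 0.446 to 0.720 with α-amanitin (means 1.05 ± 0.06 and 0.573 ± 0.138, SD, n = 3 each). In the NT libraries it was 0.319 to 0.763, and in the Am libraries 0.104 to 0.187. In both comparisons the untreated libraries were all above the treated ones (exact permutation test on log2 ratios, two-sided, p = 0.1, the smallest possible here). In the other pair the ratio of 0.592 to 1.04 in R overlapped with 0.360 to 0.743 in RAm (exact permutation p = 0.6), with both genes low in RAm. Between D (0.941 to 2.31) and DR (1.25 to 1.85) the ranges overlapped as well (exact permutation p = 0.8). The table of the 2-cell experiment uses longer gene models (2447 bases for Dppa2 and 1662 for Dppa4, against 1948 and 1534 in the other tables), so its ratios are not on the same scale.

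**Figure D3:**
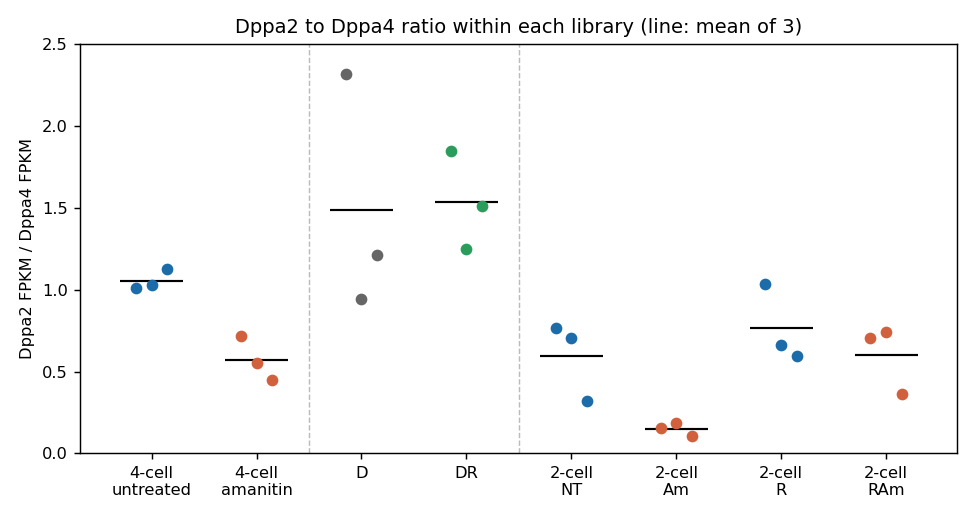
Dppa2 FPKM divided by Dppa4 FPKM in each library (linear axis from 0), with 1 point per library and a line at the mean of 3 libraries. The untreated libraries are above those with α-amanitin in the 4-cell and NT and Am comparisons without overlap, and in the replication experiment the highest ratio, 2.31, is that of the library D1.

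Duxf3 itself was close to 0 in nearly all libraries. In the 4-cell experiment it was listed at 0 in all 6 libraries, and a count of 0 still allows up to 0.359 to 0.979 FPKM there, depending on the library (3 reads; counting error only). In the NT libraries Duxf3 stood at 0.348, 0.310 and 0.419 FPKM, or 7.34 to 8.79 reads a library, and in the Am libraries it was listed at 0 in all 3. Summed over libraries, the NT value was 6.35 times the limit of 3 reads over the Am group. Duxf3 stood at 0.0229, 0.171 and 0 FPKM in R and 0.216, 0.0525 and 0.0265 in RAm, from at most 5.51 reads a library. The gene was tested only when the filter on low FPKM was dropped, where NT minus Am was 0.54 ± 0.10 (limma, adjusted p = 0.0114) and R minus RAm 0.09 ± 0.10 (adjusted p = 0.546). The Am values were all 0 and had no spread, and NT held at most 8.79 reads a library. The call in NT against Am is therefore not taken as support for a difference. The exact permutation test gave p = 0.1 for NT against Am, its smallest value. Reads that fit the copies of Duxf3 limit what these small values say about Duxf3 alone.

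The exception was the library D1, in which Duxf3 reached 9.48 FPKM (155 reads), against 0.116 and 0.118 in the other D libraries and 0.0713, 1.21 and 0 in DR. The D mean was 3.24 FPKM with this library and 0.117 without it. In the same library the copies AW822073, Gm10807 and Gm4981 had 84.5, 48.1 and 33.8 reads. A list of 22 genes known to be turned on by Dux, without Duxf3, summed to 9464 FPKM in D1, against 268 to 1188 FPKM in the other 5 libraries of the experiment, and all 22 reached 1 FPKM in D1, against 10 to 16 of them elsewhere in the table. Relative to the other libraries, large gaps were in the Zscan4 cluster, named here after their values were seen. Zscan4d was at 472 FPKM in D1 and at most 1.06 in the other 5 libraries, and Zscan4c at 606 FPKM and at most 0.203. Gm2016 was at 1927 FPKM in D1 and at 21.0 to 233 in the others. Dppa2 was highest of the D libraries in D1 (444 FPKM) and Dppa4 lowest (192 FPKM), which gave the highest ratio of the 6 libraries, 2.31. Each library was a pool of embryos, so a rise in all embryos of the pool and in 1 of them cannot be told apart. The values of the Dppa genes between D and DR were not called with or without D1, and without it the change of Dppa2 was 0.17 (adjusted p = 1.0).

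**Figure D4:**
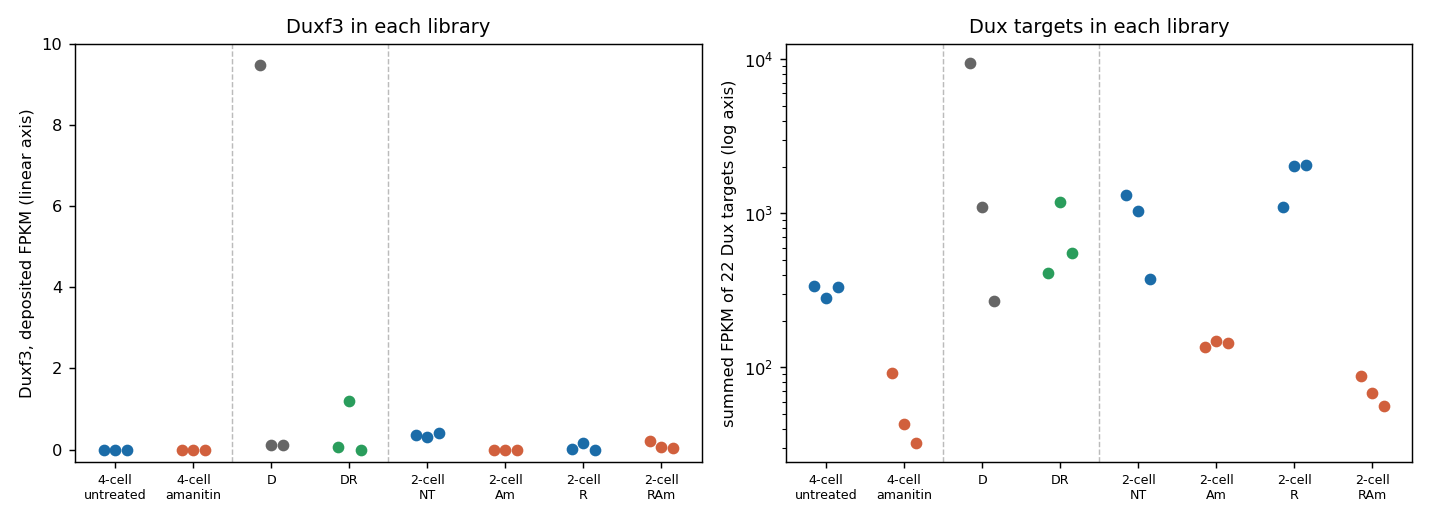
Left, deposited FPKM of Duxf3 in each library (linear axis); right, summed FPKM of 22 known Dux targets in each library (log axis). The library D1 reaches 9.48 FPKM of Duxf3 and 9464 FPKM of its targets, above all other libraries, whereas untreated libraries of the 4-cell and 2-cell experiments exceed those with α-amanitin in the targets while Duxf3 is at or near 0.

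Several known targets of Dux were higher without α-amanitin, in libraries where Duxf3 was listed at or near 0. In the 4-cell experiment the copies AW822073, Gm10807, Gm4981 and Gm19459 were also listed at 0 in every library. Whether reads that fit several of these genes went uncounted there was not tested, so the absence of Dux RNA cannot be read from these values. At the 4-cell stage the 22 targets summed to 283 to 337 FPKM without and 32.4 to 92.5 FPKM with α-amanitin, and 10 to 14 of them reached 1 FPKM in an untreated library against 1 to 4 in a treated one. Of the 10 that could be tested, 9 passed the filter only with the help of the untreated libraries, so neither the number called nor a test of these genes is given. Gm2016 stood at 57.3 to 67.0 FPKM without and 0 to 0.365 FPKM with α-amanitin, and Gm5662 at 50.8 to 54.3 FPKM without and 0 to 0.478 with it. Usp17lb, of a family of ubiquitin hydrolase genes, and Tcstv3, a 2-cell stage gene, were listed at 0 in all 3 treated libraries and at up to 33.5 and 29.7 FPKM in the untreated ones. The Zscan4 genes were below the filter there. Of the 21 targets tested in the 2-cell experiment, 17 reached the filter in the libraries with α-amanitin alone, and the counts that follow cover these 17. In NT against Am, 11 of 17 targets rose and 0 fell (median 2.39 against 0.80 over all genes, with 35.1% of all genes called higher), again led by Gm2016 (5.19 ± 0.72, adjusted p = 5.79e-04) and Gm5662 (5.13 ± 0.76, adjusted p = 7.75e-04). The 6 Zscan4 genes, named after their values were seen, were not called, at log2 changes of -1.19 to -0.45 (adjusted p from 0.0587 to 0.355). In R against RAm, 16 of 17 rose (median 5.09 against 2.19, with 76.2% of all genes called higher), with Tcstv3 at 9.39 ± 0.50 and Tdpoz4 at 8.06 ± 0.59 (adjusted p = 3.04e-09 and 3.00e-08). Of the 6 Zscan4 genes, 5 were called higher in this pair, at 0.87 to 2.30 (adjusted p from 3.69e-04 to 0.0203), and Zscan4f stood at 0.83 ± 0.45 (adjusted p = 0.101). Without spike-in scaling, 9 of the 17 targets rose and 2 fell in NT against Am (13.4% and 4.57% of all genes), the latter being Zscan4a (-1.79, adjusted p = 0.0403) and Zscan4d (-1.88, adjusted p = 0.0230), and 11 rose and 0 fell in R against RAm (54.9% and 14.0% of all genes). The Zscan4 genes were then not called in R against RAm, and the sign turned for all of them other than Zscan4d (-0.78 to 0.66, adjusted p from 0.166 to 0.875). Many of these genes lie in clusters of near-identical copies, so single values are uncertain.

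Genes known to act on Dux were not called at the 4-cell stage, where 12.2% of all genes tested were. Of its activators other than Dppa2 and Dppa4, Nelfa (a subunit of the negative elongation factor) and Trp53 (p53) stood at log2 changes there of 0.57 ± 0.33 and 0.94 ± 0.60 (adjusted p = 0.286 and 0.340). Both were called higher in NT against Am at 1.12 ± 0.41 and 1.40 ± 0.34 (adjusted p = 0.0481 and 0.00797), and neither when FPKM were not scaled to spike-ins (adjusted p = 0.391 and 0.0759). In R against RAm both were called higher with scaling, at 3.62 ± 0.41 and 2.81 ± 0.34 (adjusted p = 1.67e-06 and 3.50e-06), and without it, at 1.96 and 1.53 (adjusted p = 1.12e-04 and 4.30e-04). Of 16 repressors of Dux or of the 2-cell program, 0 of 15 tested were called at the 4-cell stage (median 0.31 against 0.37), and of the 13 that reached the filter in the 2-cell libraries with α-amanitin alone, 7 were higher in NT than in Am (median 1.04 against 0.80) and 12 in R than in RAm (median 3.25 against 2.19), beside 35.1% and 76.2% of all genes. Without spike-in scaling 1 of these 13 was called higher in NT, and in R 10 were called higher and 1 lower, where 13.4% of all genes were called higher in NT, and in R 54.9% higher and 14.0% lower. Sumo2, which encodes a protein modifier, was the leading repressor gene in both pairs, at 1.95 ± 0.42 (adjusted p = 0.00423) and 6.87 ± 0.42 (adjusted p = 7.62e-09). The related double homeobox genes Duxbl1, Duxbl2 and Duxbl3 were below the filter in the 4-cell experiment with α-amanitin. They reached it in the replication experiment, which also used 4-cell recipients, so their absence is not a trait of the stage. In both 2-cell pairs they were called higher without α-amanitin, at 1.37 to 1.40 in NT against Am and 4.11 to 4.22 in R against RAm. Without spike-in scaling they were called in the second pair and not in the first (adjusted p from 0.206 to 0.222).

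**Figure D5:**
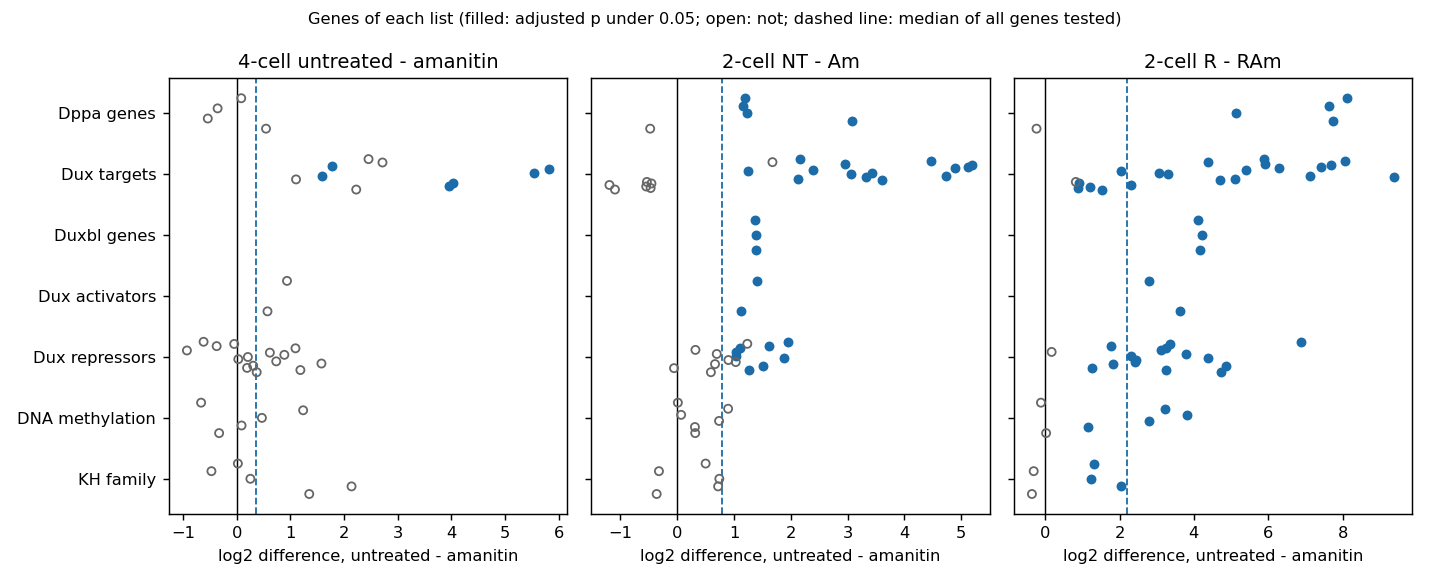
Log2 difference (untreated minus α-amanitin) of the genes of 7 lists in the 4-cell embryos and in both 2-cell pairs, with 1 point per tested gene, filled where the adjusted p was under 0.05, and a dashed line at the median of all genes tested; the horizontal axes differ between panels. In the 4-cell panel the filled points are Dux targets, such as Gm2016 and Gm5662. Most of the targets tested there passed the filter on low FPKM only through the untreated libraries, so their fill is not read as a call. In R minus RAm most points are filled.

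Genes of DNA methylation, the pathway of Dppa3, and KH domain relatives of Dppa5a had list medians below those of all genes in both 2-cell pairs. Among DNA methylation genes, 0 of 5 tested were called at the 4-cell stage, 0 of 6 in NT against Am and 4 of 6 in R against RAm, with medians of 0.09, 0.32 and 1.98 against 0.37, 0.80 and 2.19 over all genes. These counts stand beside 12.2% of all genes called at the 4-cell stage, 35.1% called higher in NT and 76.2% called higher in R. Uhrf1 was at 1.11 to 1.83 FPKM in R and 4.30 to 9.18 in RAm, where Dppa3 was lowest, and its log2 change was 0.03 ± 0.33 after spike-in scaling (adjusted p = 0.945) and -1.46 without it (adjusted p = 8.60e-04). Dnmt3l, which stimulates the de novo methyltransferases, was higher in R than in RAm at 3.82 ± 0.46 (adjusted p = 2.71e-06). Of the KH domain relatives of Dppa5a, 0 of 5 were called at the 4-cell stage and in NT against Am, and 3 of 5 in R against RAm (median 1.24 against 2.19), beside the same shares of all genes. Khdc1b stood at 64.9 to 96.7 FPKM in R and at 289 to 537 in RAm, with a log2 change of -0.31 ± 0.31 (adjusted p = 0.364) after scaling and -2.31 without it (adjusted p = 6.61e-06). In deposited FPKM, Khdc1b was thus higher in RAm than in R, whereas Dppa5a was lower. Without spike-in scaling 0 of the 5 relatives were called higher and 3 lower in this pair, 0 higher and 2 lower in NT against Am (Khdc1b at -1.12 and Ooep at -0.97, adjusted p = 0.0131 and 0.0312), and in R against RAm 3 methylation genes were called higher and 2 lower. Of all genes, 4.57% were called lower in NT against Am and 14.0% in R against RAm in these unscaled fits, beside the 13.4% and 54.9% called higher. Of the listed genes known to depend on Dppa2 and Dppa4, 2 of 3 could be tested, and Syce1 was called higher in R than in RAm (4.44 ± 0.37, adjusted p = 8.99e-08) and Mael at 1.34 ± 0.46 (adjusted p = 0.0152), with neither called at the 4-cell stage or in NT against Am. For Mael the sign turned without spike-in scaling (-0.57, adjusted p = 0.242), whereas Syce1 stayed called (3.22, adjusted p = 4.35e-05). In NT against Am, Syce1 was called lower without spike-in scaling (-1.62, adjusted p = 0.0284), where with scaling it was at -0.90 ± 0.37 (adjusted p = 0.0714). Of the genes next to Dppa3 on chromosome 6, Gdf3 stood at 1.35 to 1.78 FPKM in R and at most 0.0467 in RAm, and Slc2a3 at 1.29 to 1.73 in R and 0.232 to 0.861 in RAm. Neither would have reached the filter in the libraries with α-amanitin alone, so no test is given for them in this pair, and 0 of 3 tested neighbours were called in NT against Am. Without spike-in scaling their neighbour Nanog was called lower in R than in RAm (-1.33, adjusted p = 0.00886), where with scaling it was at -0.02 ± 0.42 (adjusted p = 0.972).

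Over all 24 libraries, with each table centred on its own mean, the genes whose log2(FPKM + 1) ran closest to a member included its copies. For Dppa2 they were the pseudogenes Gm9788 and Gm8023 (Pearson r of 0.988 and 0.987), followed by Gm6335, Gm26938 and Gm42977. For Dppa3 they were Dppa3-ps (r = 0.997) and then the ribosomal genes Rps25, Fau, Gm9843 and Rpl41. For Dppa4 they were Gm14058 (r = 0.9905), Gm12617, Ccnb1-ps, AC153729.3 and Supt4b, and for Dppa5a they were Uqcc3 (r = 0.993), Dppa5c, Dppa5b, Snapc5 and Gm6083. Among the members, r was highest between Dppa4 and Dppa5a (0.968) and between Dppa3 and Dppa4 (0.965), and lowest between Dppa2 and Dppa3 (0.833). These values describe 12550 genes that reached 1 FPKM in 12 or more libraries, and the RAm libraries, in which most genes were low, are shared by all of them.

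The values of the copies differed between tables. Dppa5b and Dppa5c have identical annotated transcripts of 348 bases and were listed at 0 in all 6 libraries of the 4-cell experiment, and Dppa5b ranged from 86.4 to 282 FPKM in the replication experiment and from 3.41 to 396 in the 2-cell experiment. Gm9788 ranged from 6.80 to 18.9 FPKM in the 4-cell experiment, from 152 to 262 in the replication experiment and from 2.14 to 367 in the 2-cell experiment. In the 4-cell table at least 99.96% of the values were whole multiples of 1 read, against 40.3% to 50.5% in the libraries of the other tables. Levels of the Dppa genes are therefore compared within a table only.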

How the data were processed

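RNA-seq of pooled NT embryos was used from 24 of 30 samples, in 3 tables of FPKM per gene that the authors deposited. Per the submitters' processing notes, reads were handled with Trimmomatic, Trim Galore, cutadapt, STAR and featureCounts on mm10 (versions not given in the sources used here). Reads assigned to the embryo and to the donor genome were not separated in these totals. 4 value columns of the replication table match no sample and were not used, nor were the oryx nuclear transfer samples, whose identifiers were not paired with names.

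FPKM of the replication and 2-cell tables were divided by a library factor, the median of ratios over the ERCC spike-ins seen in every library (19 and 47). The 4-cell table lists none above 0 and was not scaled. Genes that reached 1 FPKM, as deposited, in 3 or more libraries entered limma 3.58.1 (R 4.3.3, trended variance) on log2(FPKM + 1), with Benjamini-Hochberg adjustment over all genes tested. Differences are on that scale, which understates changes of low genes. A call is an adjusted p under 0.05, and the counts in the closing section also require 4-fold. The 2-cell sets were fitted together as 4 groups. Single values were compared by two-sided exact permutation tests. The study describes its replicates as biologically independent, and the labels do not link pools to experiments, so p-values measure the spread between these libraries. Limits from a count of 0 use 3 reads and cover counting error only. Reads per gene were recovered as multiples of the value of 1 read (tolerance 0.01 read).

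The members and gene lists were chosen with earlier results of these data known. The named genes were the members, up to 4 called genes with the largest change per list and comparison, up to 3 of the highest mean FPKM in the activator, repressor, methylation and KH lists, and the 5 genes most like each member. Any other gene is named as chosen after its values were seen. Alternatives were another pseudocount (0.1), no filter, other scaling and leaving out each library. Sequences came from GENCODE vM21 transcripts on GRCm38 (mm10).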

Additional observations from a re-analysis of the deposited data

Results flagged for a closer look

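Of 10 groups of a member's values with 4 to 10 libraries, 2 held a library far from the rest, and chance alone sets apart about 1 in 20 groups. Dppa3 stood at 12248 FPKM in the library NT2, far above the other 5 untreated 2-cell libraries in deposited FPKM. After spike-in scaling it was at 15192, below R3 (19419) and r2 (17283). Duxf3 stood at 0.216 FPKM in the library RAm1, above the other 5 libraries with α-amanitin, on 5.51 reads.

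The change with α-amanitin differed between the 2-cell library pairs for all 4 tested Dppa genes, by the test of the difference itself in limma. The log2 change in R against RAm exceeded that in NT against Am by 4.66 for Dppa2, 3.91 for Dppa3, 6.47 for Dppa4 and 6.93 for Dppa5a. Across 17 alternatives per gene the differences ran from 2.70 to 5.17 for Dppa2, 1.52 to 4.29 for Dppa3, 4.34 to 6.85 for Dppa4 and 4.60 to 7.37 for Dppa5a.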

How the results depend on the processing

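The edgeR alternative was not run, because the deposited values are FPKM, of which only 40.3% to 45.3% came out as whole reads in the 2-cell table; limma-voom on the recovered reads of the 4-cell table the term for the library pair and the replicate block were chosen after seeing the data. No paired analysis was possible because, in the 4-cell table, no column number occurs in both groups, and D and DR share fewer than 2 numbers. The 2-cell columns share the numbers 1 to 3 within each pair of prefixes. The deviations of same-numbered libraries from their set means correlated at -0.0044 to 0.0789 over genes, and those of differently numbered ones at -0.1026 to 0.0482. R3 correlated better with RAm2 than with RAm3. With 3 libraries a set, these values cannot tell whether libraries with the same number were paired. With that number as a replicate block, 5842 genes were 4-fold higher and 28 lower in the pooled 2-cell comparison (5851 and 28 without it), and all calls for Dppa2, Dppa3, Dppa4 and Dppa5a were kept. Of 373 alternative values for the members, 338 kept their direction and their side of the threshold, 19 lost a call, 5 gained one and 11 changed sign. The cause of each change was not tested.

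At the 4-cell stage 613 genes were 4-fold higher and 36 lower without α-amanitin. The counts were 259 and 5 without the filter and 936 higher with limma-voom. They ran from 55 to 836 and from 5 to 53 on leaving out libraries, with 78, 122 and 55 higher without the untreated libraries S15, S17 and S7. Dppa3 passed the test with median-of-ratios scaling (-0.86) and with limma-voom (-0.51), and its adjusted p ran from 0.0356 to 0.205 over all its alternatives. Dppa5a turned to -0.23 with median-of-ratios scaling and ran from -0.13 to 0.35 on leaving out libraries (-0.01, -0.09 and -0.13 without the libraries S16, S18 and S7).

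Between DR and D, the values of Dppa2, Dppa4 and Dppa5a turned to 0.26, 0.13 and 0.15 with median-of-ratios scaling and to 0.32, 0.19 and 0.20 without spike-in scaling. Dppa2 ran from -3.07 to 0.17 on leaving out libraries (0.17 without D1), and the count of lower genes from 0 to 1. The log2 difference of the Dppa2 to Dppa4 ratio, 0.13, ran from -0.14 to 0.50 (-0.01 without DR1 and -0.14 without D4).

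In the pooled 2-cell comparison 5851 genes were 4-fold higher and 28 lower. The counts were 10113 and 150 with a pseudocount of 0.1, 851 and 749 with median-of-ratios scaling, 1906 and 272 without spike-in scaling, 1925 and 275 when a term for the library pair was added to that, and 17 lower without the filter. Lower genes ran from 13 to 59 on leaving out libraries. Dppa3 lost its call with median-of-ratios scaling (0.95). In NT against Am, Dppa3, Dppa4 and Dppa5a lost their calls without the filter (1.23, 1.17 and 1.19 with adjusted p of 0.124, 0.0823 and 0.0969), with median-of-ratios scaling (0.18, 0.12 and 0.14) and without spike-in scaling (0.42, 0.36 and 0.38), and ran from 1.06 to 1.53, from 0.90 to 1.54 and from 0.93 to 1.34 on leaving out libraries. Duxf3 passed the test only without the filter, at 0.31 pooled, 0.54 in NT against Am and -0.45 for the difference between pairs. These calls rest on at most 8.79 reads a library and are not taken as support for a difference.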
